A study of Homo sapiens with 3 samples.

Results

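The strongest PRCC-TFE3 sites by raw tag count were 1529 peak pairs that held 100 or more sequence tags when both HA-PRCC-TFE3 ChIP-seq libraries were added together. They were 1529 of 55651 matched pairs on chromosomes 1 to 22 and X, or 2.75% of them. A pair was a peak of replicate 1 and a peak of replicate 2 in the deposited BED lists that overlapped by at least 1 bp, with the nearest centre taken if there were several. The tag sums chose the sites, so tag numbers and the values made from the same tags are given below as a description. The 9303 pairs with 50 to 69 tags, 16.7% of all pairs, served for comparison.

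HK-2, an established human cell line derived from the proximal tubule of the kidney, was made to express HA-tagged PRCC-TFE3 from a doxycycline-inducible system, and chromatin was cut with micrococcal nuclease. All samples, the input DNA included, were exposed to 0.2 µg/mL doxycycline for 24 h. Libraries were made from 2 ChIP replicates and 1 input DNA sample, with totals of 12235754 and 7418533 tags for replicates 1 and 2, estimated from the lists. The fusion was thus studied as an induced, tagged protein in a cultured line. Uninduced cells were not analysed here, and the design held a single ChIP group, so no test between conditions was possible. Neighbouring sites are not independent replicates, and all intervals below are 95% intervals that cover counting error only.

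TFE3 belongs to the MiT/TFE family of basic helix-loop-helix leucine zipper transcription factors, which bind E-box type elements as dimers and are best known for control of lysosomal and autophagy genes. In *TFE3*-rearranged renal cell carcinoma, a translocation joins TFE3 to a partner such as PRCC. The fusion keeps the DNA-binding part of TFE3 and is held in the nucleus more than TFE3 itself. Positions are those of the deposited replicate 1 peak, counted from 1, in hg19, the build that the submitters' processing notes name. Genes, promoters and sequences at these positions were not analysed here, since the annotation at hand was that of another build.

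To show how strong the sites were, tags were first read in each replicate. In replicate 1 the lowest, median and highest numbers were 45, 66 and 245 tags, and in replicate 2 they were 28, 47 and 201 tags. Pairs with 50 to 69 tags had medians of 35 and 23 tags. The strongest sites held 103713 tags of replicate 1, or 0.848% of that library, and 74749 tags of replicate 2, or 1.01%. These were 5.70% and 7.25% of all tags in the peaks of each list. Most of the sites lay close to the limit that defined them: 1465 had 100 to 149 tags and 64 had 150 or more. The 155 pairs with 100 or 101 tags had median tags of 58 and 42, and the 171 pairs with 98 or 99 tags had medians of 59 and 40, so the limit cut through a continuous range.

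**Figure D1:**
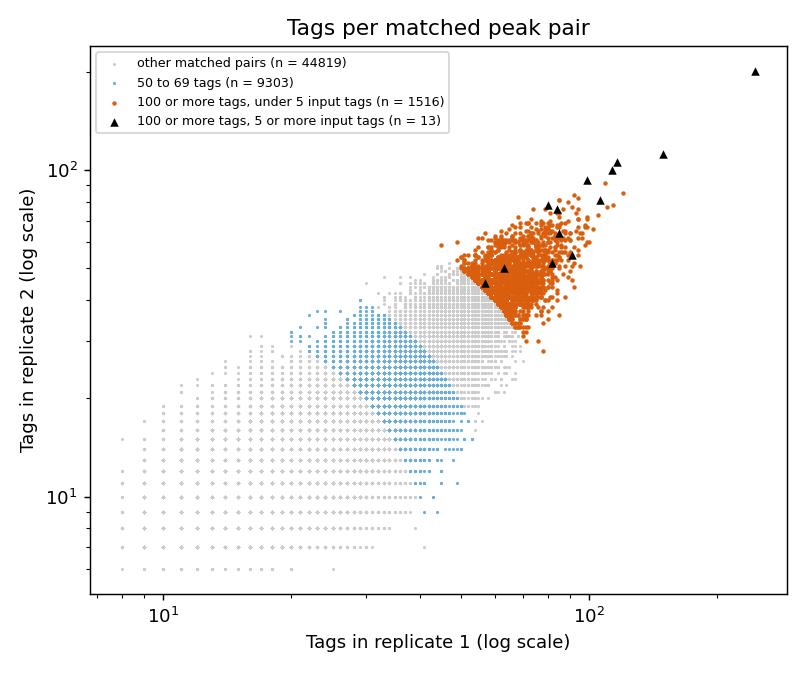
Each point is a matched peak pair, with its tags in replicate 1 on the horizontal and in replicate 2 on the vertical axis, both on log scales; colours mark the tag classes and triangles mark the 13 strongest sites with 5 or more input tags. The highest point, with 245 and 201 tags, is one of these triangles, whereas most of the strongest sites have few input tags.

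Next, the individual sites with the most tags were identified among those that overlapped no input peak. The first was chr17:41400925-41401132, with 245 tags in replicate 1 and 201 in replicate 2. That site held 33 input tags, and its enrichment over input was 13.2-fold in replicate 1 and 17.8-fold in replicate 2, the lowest of the 20 strongest. The second, chr20:45318268-45318475, held 120 and 85 tags, with 1 input tag in the replicate 1 window. It was followed by chr20:3792409-3792616, with 109 and 91 tags and 0 input tags. Of the others, chr1:244615389-244615596 held 114 and 78 tags, and chr20:3748441-3748648 held 110 and 77 tags, both with 0 input tags. Apart from the site on chromosome 17, these positions were thus nearly free of input signal.

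The remaining 15 of the 20 strongest sites had 165 to 178 tags and 0 to 2 input tags in the replicate 1 window. Chromosome 20 held 7 of the 20, chromosomes 1 and 3 held 4 each, chromosome 19 held 2, and chromosomes 2, 10 and 17 held 1 each. On chromosome 3 they were chr3:99979545-99979752 with 105 and 73 tags, chr3:186288151-186288358 with 99 and 72, chr3:179280501-179280708 with 94 and 76, and chr3:155588121-155588328 with 99 and 67. Outside the chromosomes with several of them were chr2:208394448-208394655 with 93 and 74 tags and chr10:99400261-99400468 with 85 and 81 tags. Across the 20 sites, the enrichment over the local background ranged from 9.59-fold to 40.4-fold in replicate 1 and from 11.6-fold to 45.1-fold in replicate 2. The highest value in each replicate was at the second site by tags, chr20:45318268-45318475. The third, chr20:3792409-3792616, had 17.45-fold and 21.22-fold, below the 30.31-fold and 37.4-fold of chr10:99400261-99400468, which had fewer tags. Raw tag number and local enrichment were therefore not in the same order.

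Several rankings were set side by side to show what a raw tag count selects. When the same number of pairs was taken by the lower of both narrowPeak fold enrichments, 1209 of 1529 (79.1%) were strongest sites. By the lower of both folds over input in the BED lists, 931 (60.9%) were strongest sites. By the lower of both enrichments over the local background, 129 (8.44%) were. In the fold over input, 0.5 tags stood for 0 input tags, and 999 strongest sites had 0. That ranking thus depended in part on single input tags. Strongest sites made up 2.75% of all pairs. The pairs at the top of the local ranking had a median of 55 tags. All of these measures come from the same tags, so the shares describe the lists and are no independent support.

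The strongest sites were then counted by chromosome. On chromosome 20, 150 of 1992 matched pairs had 100 or more tags, or 7.53% (exact binomial interval, 6.41% to 8.78%). Chromosome 19 followed with 153 of 2459 pairs (6.22%; 5.30% to 7.25%), and then chromosome 10 with 4.40%, chromosome 1 with 4.22% and chromosome 3 with 3.73%. At the other end, chromosomes 18 and 21 had none. On chromosome 18, 0 of 849 pairs allows a share of up to 0.353% if the limit is set at 3 counts, with an exact binomial upper bound of 0.434%. On chromosome 21, 0 of 484 pairs allows up to 0.620% by the same limit, with an exact upper bound of 0.759%. Chromosomes 13 and 15 had 1 strongest site each, among 871 and 1345 pairs, and chromosome 11 had 5 among 1953. Chromosome 5 had 11 of 2282 (0.482%; 0.241% to 0.861%) and chromosome X had 7 of 1194 (0.586%; 0.236% to 1.20%).

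The 5 chromosomes with the highest shares held 829 of the 1529 strongest sites (54.2%), compared with 3076 of the 9303 pairs with 50 to 69 tags (33.1%) and 30.9% of all pairs. The 7 lowest chromosomes, X, 5, 11, 13, 15, 18 and 21, held 25 strongest sites (1.64%), compared with 1208 pairs with 50 to 69 tags (13.0%) and 16.1% of all pairs. A similar but weaker order was seen in the compared class. Pairs with 50 to 69 tags made up 19.8% of pairs on chromosome 20 and 19.9% on chromosome 19, but 10.2% on chromosome 13 and 12.2% on chromosome 18. The contrast between chromosomes thus widened as the tag limit was raised.

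Input DNA, chromatin DNA that was not immunoprecipitated, varied in a similar order. It is a separate library whose tags did not enter the tag sums. The methods name input as the comparison for peak calling, however, so it may have affected which pairs were listed. Among pairs under 100 tags that overlapped no input peak, the mean number of input tags per pair was 1.30 on chromosome 20 (exact Poisson interval, 1.25 to 1.35), 1.01 on chromosome 10 and 0.869 on chromosome 19. It was 0.377 on chromosome 13 (0.337 to 0.420), and it lay between 0.442 and 0.573 on the other 6 of the 7 lowest chromosomes. On the remaining 16 chromosomes, which all had strongest sites at 1.67% of pairs or more, it was at least 0.690. Across the 23 chromosomes, the share of strongest sites and the mean input tags had a Spearman's rho of 0.866, given as a description: the chromosomes share their libraries, and both measures depend on the pairs that were listed. The part of this input difference in the placement was not tested. When each tag sum was scaled by the mean input of its chromosome, 1885 pairs passed 100 tags, 951 of the strongest sites (62.2%) were among them, and the shares ran from 0.351% on chromosome 20 to 14.8% on chromosome 13. This scaling moves all pairs of a chromosome alike, and mean input varied far more between chromosomes than the median tag sum, which ran from 31 to 44, so the reversed order follows from the scaling itself and nothing is read from it.

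**Figure D2:**
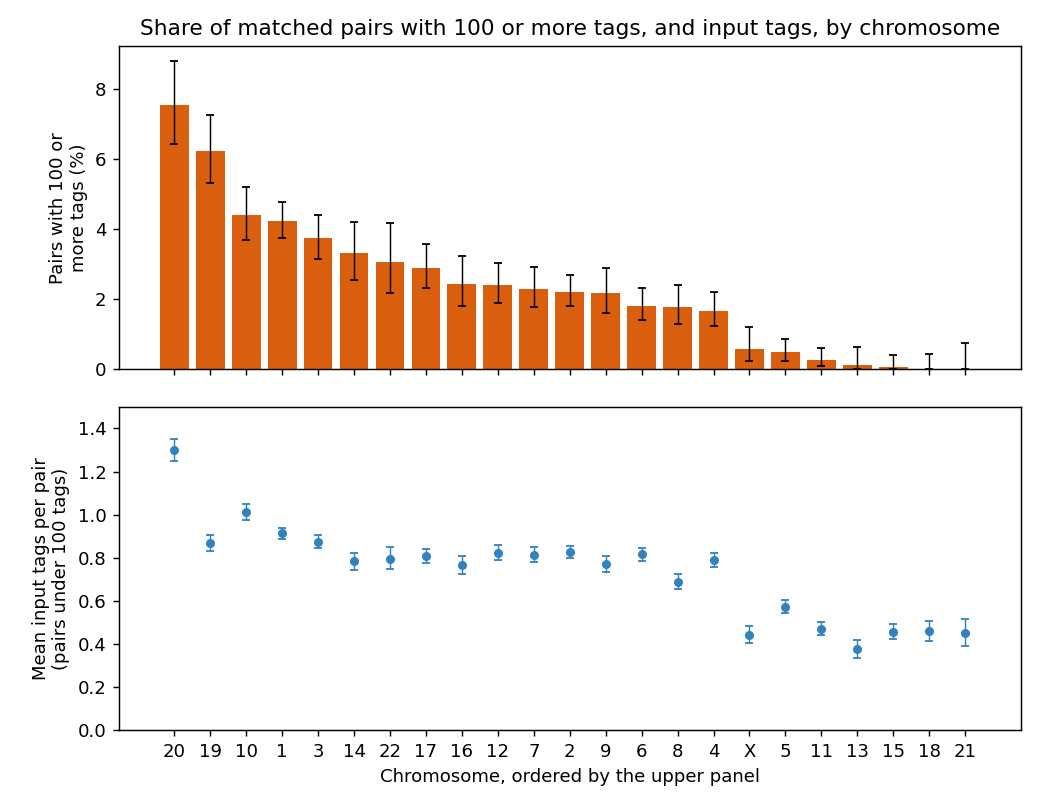
The upper panel shows the percentage of matched pairs on each chromosome that had 100 or more tags, with exact binomial intervals, and the lower panel shows mean input tags per pair among pairs under 100 tags, with exact Poisson intervals, in the same chromosome order. Chromosome 20 is highest in both panels, at 7.53% and 1.30 tags, and the 7 chromosomes on the right are low in both.

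The sites were also counted in windows of 5 Mb that held at least 50 pairs. Of 445 such windows, 138 (31.0%) had no strongest site. Each of the 445 had at least 1 pair with 50 to 69 tags, but that class is much larger, so the counts of empty windows cannot be compared. Outside the 7 lowest chromosomes, 66 of 361 windows had none. In 54 windows the strongest sites made up 5% or more of the pairs, and these windows held 646 of the 1529 sites (42.2%). The highest shares, chosen here after their values were seen, were 22 of 189 pairs (11.6%) on chromosome 19 from 55 to 60 Mb, 28 of 251 (11.2%) on chromosome 20 from 0 to 5 Mb, and 11 of 107 (10.3%) on chromosome 1 from 245 to 250 Mb. Mean input tags per pair in these 3 windows were 1.10, 1.46 and 1.24, above the 0.790 of all pairs. Of the 54 windows, 49 were above that mean and 5 were not, with a range from 0.649 to 2.4 tags and a median of 1.08. Among the 5 was chromosome 19 from 50 to 55 Mb, with 17 of 191 pairs (8.90%) and 0.702 input tags. Shares also differed within chromosomes, in windows likewise chosen after their values were seen. Chromosome 3 had 0 of 176 pairs from 45 to 50 Mb and 13 of 133 (9.77%) from 195 to 200 Mb. Mean input tags there were 0.409 and 1.15. Chromosome 10 had 0 of 107 pairs from 30 to 35 Mb and 23 of 236 (9.75%) from 70 to 75 Mb. Mean input tags there were 0.477 and 1.15.

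To describe spacing, the distance from each site to the nearest other matched pair of any strength was measured. Its quartiles were 2415, 6901 and 14293 bp for the strongest sites and 1978, 6178 and 16054 bp for pairs with 50 to 69 tags. The distances of the strongest sites were thus less spread, with fewer very close and fewer very distant neighbours. Another pair lay within 10 kb of 957 strongest sites (62.6%; exact binomial interval, 60.1% to 65.0%), compared with 63.4% of pairs with 50 to 69 tags and 56.5% of all pairs. The difference from pairs with 50 to 69 tags was -0.83 percentage points (interval, -3.45 to 1.79), which includes 0.

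The direction of that difference changed with the window. Within 5 kb, 39.6% of the strongest sites and 44.5% of the pairs with 50 to 69 tags had a neighbour, a difference of -4.91 percentage points (-7.56 to -2.26). Within 50 kb the shares were 96.7% and 93.8%, a difference of 2.91 points (1.88 to 3.94), with a mean of 5.52 neighbours for the strongest sites and 4.75 for the others. With the pairs of 50 to 69 tags weighted to the chromosomes of the strongest sites, the means within 50 kb were 5.52 and 5.12, and the share within 10 kb was 62.6% compared with 65.9%. No peak in either list had an enrichment below 4-fold over its local background, so a weak peak beside a strong site had more to exceed. The part of this limit in the spacing was not tested.

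**Figure D3:**
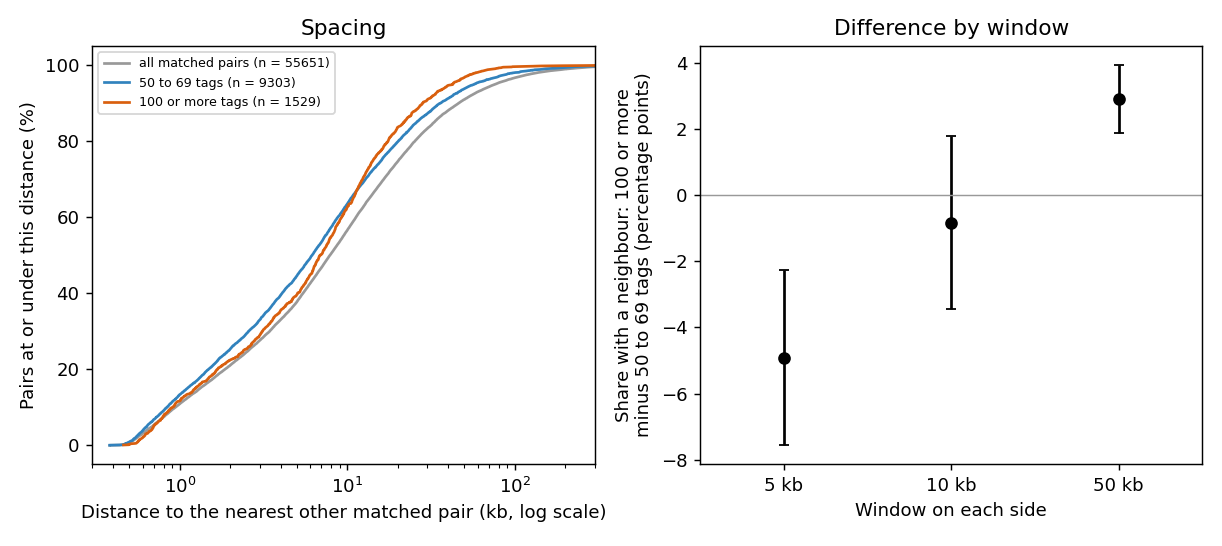
The left panel shows the percentage of pairs whose nearest other matched pair lies at or under the distance on the horizontal axis (kb, log scale), for all pairs, pairs with 50 to 69 tags and the strongest sites; the right panel shows the share with a neighbour in the strongest sites minus that in pairs with 50 to 69 tags, with 95% intervals, for 3 windows. The curves of both classes cross at a distance above 10 kb, and the difference runs from -4.91 points at 5 kb to 2.91 points at 50 kb.

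The neighbours themselves were then compared. Around the 957 strongest sites with a pair within 10 kb, the neighbours had a median of 51 tags, compared with 43 tags around pairs with 50 to 69 tags. Neighbours with under 30 tags made up 13.1% and 20.7%, and neighbours with 100 or more tags made up 6.98% and 4.25%, beside 2.75% of all pairs. None of these neighbour tag values was weighted by chromosome, and the part of placement in them was not tested. A strongest site exceeded every neighbour within 10 kb in 900 of 957 cases, which its choice by tag number favours. The local background, taken as the tags of a peak divided by its enrichment over its surroundings, had medians of 3.0 tags per peak-sized window in replicate 1 and 1.91 in replicate 2 for the strongest sites. For pairs with 50 to 69 tags the medians were 1.98 and 1.21. Means weighted to the same chromosomes were 3.33 and 2.39 in replicate 1 and 2.12 and 1.49 in replicate 2. This background is computed from the tags that chose the sites. The 4-fold limit of the lists also allows a peak with fewer tags only a lower background. The part of this limit in the difference was not tested.

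Some strongest sites lay beside each other. Of the 1529 sites, 105 (6.87%; 5.65% to 8.25%) had another strongest site within 10 kb, compared with 4.41% of pairs with 50 to 69 tags and 2.76% of all pairs that had one as a neighbour. These shares were not weighted by chromosome. The 5 chromosomes with the highest shares held 54.2% of the strongest sites but 33.1% of the pairs with 50 to 69 tags. The part of this placement in the contrast was not tested. The 105 sites formed 46 groups of 2, 3 groups of 3 and 1 group of 4. The group of 4 lay on chromosome 10 between 73611012 and 73631328, a span of 20.3 kb that held 5 matched pairs in all. Its sites held 77, 79, 60 and 80 tags in replicate 1 and 47, 56, 40 and 37 tags in replicate 2, with 0 or 1 input tags each, and the distances between neighbouring centres, averaged over both replicates, were 9264, 7771 and 3087 bp. Replicate 2 put the last of the group lowest, whereas replicate 1 put it highest. Of the groups of 3, described here after their values were seen, those on chromosomes 3 and 19 had 0 or 1 input tags per site, whereas the 3 sites of the group on chromosome 8, within 3.85 kb, had 33 to 40 input tags each.

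Input tags at the strongest sites were sparse, with a few exceptions. No input tag was present at 999 sites (65.3%; exact binomial interval, 62.9% to 67.7%), compared with 57.0% of pairs with 50 to 69 tags and 49.7% of all pairs. The difference from pairs with 50 to 69 tags was 8.38 percentage points (5.79 to 11.0), and it was 12.6 points with those pairs weighted to the chromosomes of the strongest sites. Strongest sites with 5 or more input tags numbered 13 (0.850%). There were 37 such pairs (0.398%) among those with 50 to 69 tags, and 300 among all 55651 pairs. Without the 13 sites, the mean was 0.435 input tags (exact Poisson interval, 0.403 to 0.470), compared with 0.605 (0.589 to 0.621) for pairs with 50 to 69 tags treated alike. Including them, the means were 0.634 and 0.626 and no longer differed beyond their intervals, so 13 sites removed the difference in the mean.

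These 13 sites stood apart in several values. Input peaks overlapped 9 of them, or 0.589% of the strongest sites, compared with 0.0537% of pairs with 50 to 69 tags and 0.0413% of all pairs. They included chr17:41466141-41466348, with 149 and 112 tags and 37 input tags, and chr3:73159863-73160070, with 116 and 106 tags and 30 input tags. Their narrowPeak folds were low: 4.73 and 6.22 at the first, 8.80 and 12.9 at the second. The medians of all strongest sites were 31.2 in replicate 1 and 28.2 in replicate 2. Among the 64 sites with 150 or more tags, 8 had 5 or more input tags, compared with 5 of the 1465 sites with 100 to 149 tags. A high raw tag count at the very top of the list thus came more often with a high input count. The methods name input as the comparison for peak calling. A position with many input tags may therefore need many ChIP tags to be listed. The lowest fold over input among the 13 sites was 4.3 in replicate 1, at 80 tags and 33 input tags. The part of peak calling in these contrasts was not tested.

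The focus fraction, in the last column of the BED lists, is read here, from the layout of the lists, as the share of tags that lie on the side of the peak centre expected from their strand. It is drawn from the same reads as the tag counts and is described here without a test. In replicate 1 its quartiles were 0.758, 0.808 and 0.847 for the strongest sites and 0.765, 0.814 and 0.860 for pairs with 50 to 69 tags. In replicate 2 they were 0.774, 0.821 and 0.860 for the strongest sites and 0.767, 0.821 and 0.870 for the others. The medians differed by -0.006 in replicate 1 and 0.000 in replicate 2. Across all tag classes the median rose from 0.786 and 0.800 under 20 tags to 0.814 and 0.821 at 50 to 69 tags, and it was 0.800 and 0.810 at 150 or more tags. Strength beyond 50 tags was therefore not accompanied by a higher focus fraction.

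**Figure D4:**
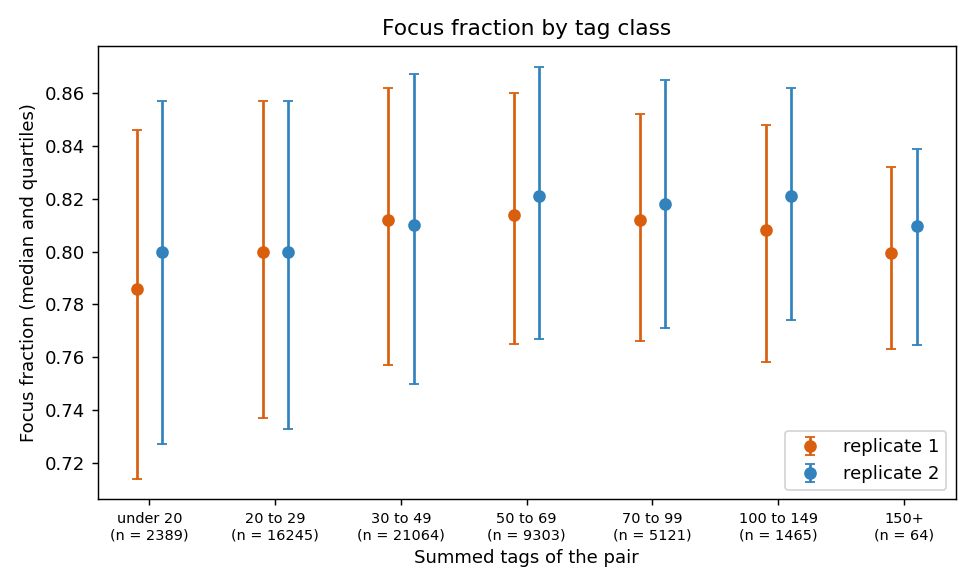
Points show the median focus fraction and bars the quartiles in replicate 1 and replicate 2, for matched pairs grouped by their summed tags. The medians lie between 0.786 and 0.821 in every class, and the quartiles of all classes overlap.

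The values did repeat better between replicates at strong sites. Spearman's rho between the focus fractions of both replicates was 0.606 over the 1529 strongest sites, 0.387 over pairs with 50 to 69 tags and 0.283 over all pairs. These are descriptions across sites. The focus fraction multiplied by the listed tags does not give whole numbers, so the number of tags behind each value is unknown. A focus fraction under 0.70 in both replicates was found at 42 strongest sites (2.75%; 1.99% to 3.70%), compared with 2.17% of pairs with 50 to 69 tags and 2.99% of all pairs. When sites were chosen on replicate 1 alone and read in replicate 2, the median was 0.814 for the strongest 1529 and 0.818 for pairs at the ranks of the 50 to 69 tag class. Chosen on replicate 2 and read in replicate 1, the medians were 0.806 and 0.811. In both directions the difference was small beside the quartile range.

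The sites with the highest focus fractions were not all alike. Sites were ordered by the lower of their 2 focus fractions. The first by this order was chrX:58561308-58561515, with 0.983 in replicate 1 and 0.978 in replicate 2, and the next was chr2:92275844-92276051, with 0.966 and 0.987. Both overlapped input peaks, with 13 and 22 input tags, and their local enrichments were 192-fold and 74.6-fold in replicate 1. The first overlapped no narrowPeak peak in either replicate and the second overlapped none in replicate 1. By contrast, chr1:9779262-9779469 (0.923 and 0.934), chr10:128590813-128591020 (0.930 and 0.917) and chr3:113415570-113415777 (0.915 and 0.970) had 0 input tags and narrowPeak folds from 25.2 to 41.7. Their narrowPeak peaks measured 371 to 772 bp. The last by this order were chr2:228683000-228683207 (0.616 and 0.560), chr20:33463984-33464191 (0.578 and 0.633), chr6:52369050-52369257 (0.580 and 0.730), chr17:79818783-79818990 (0.585 and 0.622) and chr3:106064242-106064449 (0.593 and 0.611). These 5 sites had 0 to 2 input tags and narrowPeak folds from 24.3 to 32.6, and they lay in narrowPeak peaks of 717 to 1313 bp.

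Peak width was therefore examined in the narrowPeak lists, in which widths vary. The median width at the strongest sites was 630 bp in replicate 1 and 585 bp in replicate 2, compared with 449 and 408 bp at pairs with 50 to 69 tags. It was 540 and 496 bp at pairs with 70 to 99 tags, and 356 and 322 bp over all pairs. Width thus rose with tag class and was no trait of the strongest sites alone. A width of 500 bp or more in both replicates was found at 1024 strongest sites (67.0%) and at 1966 pairs with 50 to 69 tags (21.1%). Among the strongest sites, the 219 with widths under 500 bp in both replicates had median focus fractions of 0.863 and 0.880, and the 74 with 1000 bp or more had medians of 0.725 and 0.762. At pairs with 50 to 69 tags the same groups had medians of 0.843 and 0.848 and of 0.718 and 0.705. In both of these width groups, the strongest sites thus had higher medians than the weaker pairs, while over all sites their medians were the same or lower. Several matched pairs shared a single narrowPeak peak at only 2.55% of the strongest sites in replicate 1 and 1.37% in replicate 2.

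**Figure D5:**
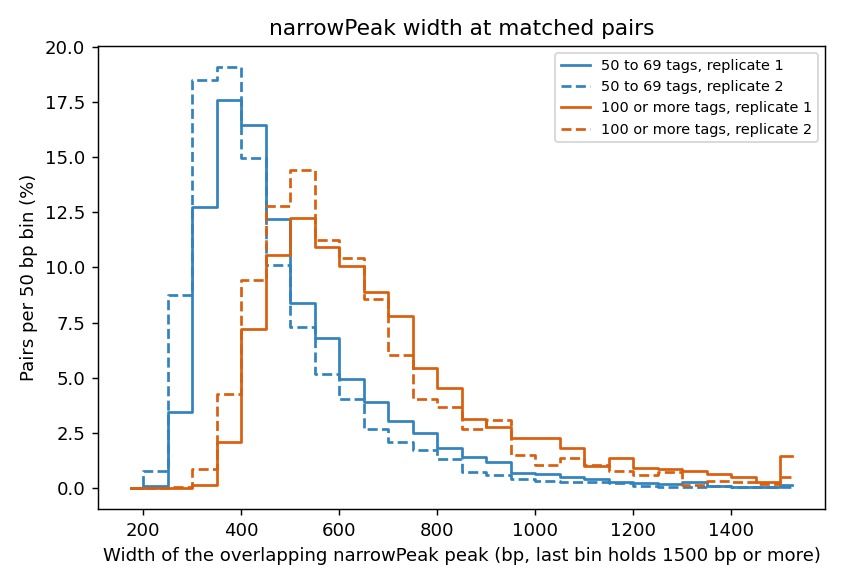
Lines show the percentage of pairs in each 50 bp bin of narrowPeak width, for the strongest sites and pairs with 50 to 69 tags in each replicate; the last bin holds widths of 1500 bp or more. The strongest sites centre on 630 and 585 bp and the weaker pairs on 449 and 408 bp, with wide overlap.

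Finally, agreement between the replicates was examined at the strongest sites. The median distance between the peak centres of both replicates was 24 bp, and 95% of distances were at most 95.6 bp. At pairs with 50 to 69 tags these values were 25 and 88 bp, and over all pairs 29 and 97 bp. Pairing by overlap limits these distances in every class. Replicate 2 contributed 41.9% of the tags of the strongest sites, compared with 39.5% at pairs with 50 to 69 tags and 37.7% of the tags of both libraries. Its share at single sites ranged from 26.4% to 56.7%, with quartiles of 38.8%, 41.9% and 44.7%. Around 1 split of tags for all sites, chi-square divided by its degrees of freedom was 0.859 (95% chi-square interval, 0.801 to 0.923), and 0.851 with a split for each chromosome, so tags varied between replicates by less than counting alone would give. This was no trait of the strongest sites alone: the value was 0.940 at pairs with 50 to 69 tags, 0.861 at pairs with 30 to 49 tags and 0.762 over all pairs. In 99.6% of the strongest sites in both replicates, the deposited clonal ratio was within 0.01 of the value computed for tags that all started at different positions. Over all pairs the shares were 99.93% in replicate 1 and 99.96% in replicate 2, so it is a trait of the lists as a whole and was slightly lower at the strongest sites. Peaks were 208 bp wide in replicate 1 and 212 bp wide in replicate 2, and the part of this trait in the low variation was not tested.

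The choice of sites was also read across replicates. The 1529 pairs with the most tags in replicate 1, at least 59 tags each, had a median of 45 tags in replicate 2, with a lowest value of 21. Pairs at the ranks of the 50 to 69 tag class had a median of 22 tags there. In the other direction, the 1529 pairs with the most tags in replicate 2, at least 42 each, had a median of 63 tags in replicate 1, compared with 33 for the lower ranks. Of those chosen on replicate 1 alone, 82.9% were strongest sites by the sum, and of those chosen on replicate 2 alone, 79.1% were. The medians were thus higher for the chosen sites in the library that had not chosen them, but single sites were not always so: the lowest values, 21 tags in replicate 2 and 30 tags in replicate 1, lay below the medians of the weaker class.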

How the data were processed

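ChIP-seq for HA-PRCC-TFE3 and input DNA were measured in doxycycline-treated HK-2 cells. Groups were taken from the sample labels. The authors deposited peak lists called for each sample separately. The methods name MACS in Strand NGS with input as comparison. The aligner and duplicate handling are not given in the sources used here. The deposited BED lists are laid out as HOMER findPeaks tables with displaced header names, so columns were read by position: a score, tag counts, a signal in tags per 10000000, scaled input signal, fold ratios over input and local background, p-values, a clonal ratio and the focus fraction. In the deposited narrowPeak lists, a score, fold ratio, −log10 p and −log10 q were given.

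Peaks on chromosomes 1 to 22 and X were paired by overlap of 1 bp. The lists held 84248 and 63535 peaks. Library totals were tag sums divided by signal sums. Input tags were recovered from tags divided by fold, with 0.5 tags standing for 0; 100% of pairs came out within 0.1 of a whole tag, and the input total was 21698071 tags by the replicate 1 list, the list used for input values. Coordinates were not converted: narrowPeak peaks on chromosome 1 reached 249228915, beyond the hg38 end at 248956422, so the hg38 reference was not used for annotation. The annotation lists and promoter comparisons that had been planned were not run. Shares have exact binomial intervals, mean input tags exact Poisson intervals, and differences of shares normal intervals. No test across sites was made.

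The members, lists and comparisons were chosen with earlier results of these data known. Named sites were the 20 with the most summed tags outside input peaks, the 5 highest and 5 lowest by the lower of both focus fractions, groups of 4 or more sites linked within 10 kb, and the 5 highest and lowest chromosomes. Scripts were tested on simulated peaks. Python 3.11.15, pandas 2.3.3, NumPy 2.4.6 and SciPy 1.17.1 were used. Alternatives changed the tag limit, the matching, the lists, the window and the compared class.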

Additional observations from a re-analysis of the deposited data

How the results depend on the processing

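In all, 54 alternative values were computed: 42 kept to their limits and 12 moved. The neighbour difference, whose interval includes 0, took either sign. Counts were allowed a factor of 1.5, focus fractions the spread between both replicates, and other values their 95% interval. A limit of 80 tags gave 4254 sites and a limit of 120 tags gave 480, against 1529. With these limits the 5 chromosomes with the highest shares held 46.9% and 61.7% of the sites, against 54.2%, and 17.7% after tags were scaled by the chromosome's input. Widths of 500 bp or more in both replicates were found at 55.5% and 75.4% of the sites, against 67.0%. The difference in sites with a neighbour within 10 kb was -5.09 percentage points at 120 tags, against -0.83, and it was -4.91 within 5 kb and 2.91 within 50 kb. The difference in sites with 0 input tags was 3.84 points against pairs of 70 to 99 tags and 12.6 points after weighting by chromosome, against 8.38. With sites chosen on either replicate alone, the share on the 5 chromosomes was 52.5% to 54.2%, the neighbour difference -2.23 to 0.70 points, the focus difference -0.006 to 0 and the difference in 0 input tags 7.95 to 8.21 points. Scaling by input, weighting by chromosome, leaving out pairs with 5 or more input tags and the limits for widths were chosen after seeing the data. No paired analysis was possible because both ChIP libraries form 1 group and the label of the input gives no number to pair them by. Alternatives for placement against genes were not run, since genes in hg19 positions were not used here. Replicate 2 was the shallower ChIP library, with a median of 47 tags at the strongest sites compared with 66 in replicate 1.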

Other observations

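A few strong peaks had no partner and were therefore left out of the strongest sites. In replicate 1, chr3:119813650-119813857 held 101 tags, and the nearest peak of replicate 2, with 69 tags, had its centre 228 bp away. In replicate 2, chr10:42385114-42385325 held 168 tags with 87 input tags and overlapped an input peak, and chr7:61970265-61970476 held 105 tags with 50 input tags. The nearest replicate 1 peaks were 10932 bp and 175766 bp away. The strongest unpaired peaks of replicate 2 thus had far more input tags than the strongest sites did.

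The widest narrowPeak peak at a strongest site, chosen here after its value was seen, lay around chr1:569826-570033 and measured 6071 bp in replicate 1 and 6083 bp in replicate 2. The site held 67 tags in each replicate and 2 input tags. Its narrowPeak folds, 74.6 and 105, were the highest of all strongest sites in both replicates, although 134 summed tags did not place it among the 20 strongest by count. The next widest peak at a strongest site measured 2439 bp in replicate 1. The sequence at this position was not analysed here, so its folds are not read as strength of binding. On chromosome 19, the neighbours chr19:54693612-54693819, with 98 and 68 tags, and chr19:54694473-54694680, with 86 and 58 tags, shared a narrowPeak peak of 2439 bp in replicate 1 but lay in separate peaks of 1013 and 885 bp in replicate 2.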
